A study of Mus musculus with 653 samples.

Results

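Collagen genes, the genes whose products form the fibrils and sheets of the extracellular matrix, were followed through single cells of the fetal mouse liver. Every gene named as a numbered collagen type and alpha chain (Col, type, a, chain) was taken. The table lists 44 such names among 54195 genes, and 43 of them held at least 1 read and are the members described here, against 28292 genes with reads in all. The table lists Col10a1 at 0, and the members nearest that limit were Col5a3 with 10 reads and Col17a1 with 15 reads over all cells.

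The cells came from livers dissociated with collagenase at E10.5, when the liver is a young bud of hepatoblasts, and at E13.5, when the liver is the main site of blood formation. Fathers were heterozygous Lgr5-EGFP-IRES-creERT2 mice, which carry green fluorescent protein in the locus of the Wnt target Lgr5, and mothers were MF1 mice. All cells were sorted as Liv2+/CD31-/CD45-, and the Lgr5-GFP+ sorts took only the green cells of that gate. All were prepared by Smart-seq2, a full-length single-cell RNA-seq method, in 5 library pools. From pool 1 to pool 5 the E10.5 bulk group had 42, 41, 41, 42 and 37 cells, and its Lgr5-GFP+ counterpart had 45, 47, 40, 41 and 38. At E13.5 the bulk group had 34, 34, 33, 34 and 24 cells, and the Lgr5-GFP+ group had 13, 27, 19, 14 and 7, which makes 80. The labels call every cell a hepatoblast and name no animal, so each group counts as 1 sample without replicates: no p-values were computed, and the library pools show how far a value moved within a group. The file names only the library of each pool, so whether pools also differ in animals or sort days cannot be told apart from library preparation. The pools also differed in the lineages they held. The paper reports batch effects between its biological replicates and corrected for them, whereas the raw counts used here carry no such correction.

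Collagens are grouped by what they build. Fibrillar collagens (11 members) assemble into the banded fibres of connective tissue and are made mainly by mesenchymal cells. Basement membrane collagens (8 members) form the sheet under epithelia and around vessels, with type IV as the network and types XV and XVIII as attached multiplexins. The other 24 members comprise 9 FACITs, which decorate fibrils, 6 beaded filament chains of type VI, 2 short chain collagens, 4 transmembrane collagens and 3 anchoring or further ones. In the adult liver most collagen is made by stellate cells, portal fibroblasts and endothelium, not by hepatocytes.

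Levels are RPM, a gene's reads per 1000000 gene-assigned reads of the summed cells, and a bracket after a level is its exact 95% Poisson interval. Cells held 463347 to 2279700 reads with a median of 1192740. Shares of cells carry exact Clopper-Pearson intervals. Both intervals cover counting error only, and the pool ranges are far wider. A member was called higher or lower when its summed RPM differed by 2-fold or more, with 3 reads as the floor of an empty group. Of the 43 members, 38 reached 1 RPM over all cells and entered this count, and 31 reached 10 RPM in a group or lineage.

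Cells were assigned to a lineage when they held more than 10 reads of exactly 1 of Afp (hepatoblast), Klf1 (erythroid), Pdgfra (mesenchyme) and Cdh5 (endothelium). This gave 61 Afp+, 160 Klf1+ and 27 Cdh5+ cells. The Pdgfra+ cells were 75 E10.5 bulk, 66 E10.5 Lgr5-GFP+, 7 E13.5 Lgr5-GFP+ cells and 1 E13.5 bulk cell, while 11 cells passed for several markers and 245 for none. Lineage followed the sort closely. Of the Afp+ cells 53 were E10.5 Lgr5-GFP+, of the Klf1+ cells 32 were E10.5 bulk, 3 were E13.5 Lgr5-GFP+ and the rest were E13.5 bulk, and of the Cdh5+ cells 22 were E13.5 Lgr5-GFP+.

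The lineage names were checked against lists of markers. Summed hepatoblast markers (7 genes, with Alb and Apoa2) stood at 15837 RPM in Afp+ cells, erythroid markers (5 genes) at 3514 RPM in Klf1+ cells, mesenchymal markers (5 genes, with Prrx1 and Cdh11) at 1054 RPM in Pdgfra+ cells, and endothelial markers (7 genes, with Kdr and Pecam1) at 3117 RPM in Cdh5+ cells. Each list was highest in the lineage of its name, but each includes the gene that set the lineage, so part of this was fixed by the rule. In their own lineages Afp gave 2227, Klf1 1418, Pdgfra 335 and Cdh5 574 RPM of these sums. The other genes of each list were also each highest in that lineage. The Cdh5+ cells also held leukocyte markers at 855 RPM, led by Fcer1g at 570 RPM, whereas Ptprc, the leukocyte antigen CD45 of the gate, was at 55.1 RPM. Pecam1, the antigen CD31 of the gate, was at 411 RPM in them. The Pdgfra+ cells held smooth muscle markers (3 genes) at 495 RPM, nearly all from 1 gene, Acta2, at 475 RPM. Among cartilage markers the Pdgfra+ cells held Sox5 at 178.4 RPM and Sox9 at 151.9 RPM with Acan at 0.00547 RPM. Stellate markers (3 genes) summed to 124.8 RPM in Pdgfra+ cells, above the other lineages, from Rgs5 at 81.2 and Des at 43.6 RPM, both also genes of pericytes or muscle. The table lists the third, Lrat, at 0 in every lineage, as it does other genes such as Timp1 and Timp3.

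Most of the collagen RNA lay in cells that were not hepatoblasts by marker. The share of a cell's reads on collagen genes had a median of 0.241% in Pdgfra+ cells (lowest 0.00320%, highest 5.33%). The median was 0.0811% in Cdh5+ cells (highest 0.379%), 0.00327% in Afp+ cells (highest 2.26%) and 0.00119% in Klf1+ cells (highest 0.477%). The lineages overlapped at their ends, but the medians of Pdgfra+ and Afp+ cells lay far apart. A Pdgfra+ cell held a median of 7 collagen genes above 10 reads and every one held at least 1, whereas 66.3% of Klf1+ cells (interval 58.4 to 73.5%) and 40.98% of Afp+ cells (28.6 to 54.3%) held none. Cells without a marker held a median of 0.110% and a highest share of 6.34%. In these 245 cells the mesenchymal markers summed to 375 RPM and the megakaryocyte markers to 1549 RPM, led by Pf4 at 1342 RPM.

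**Figure D1:**
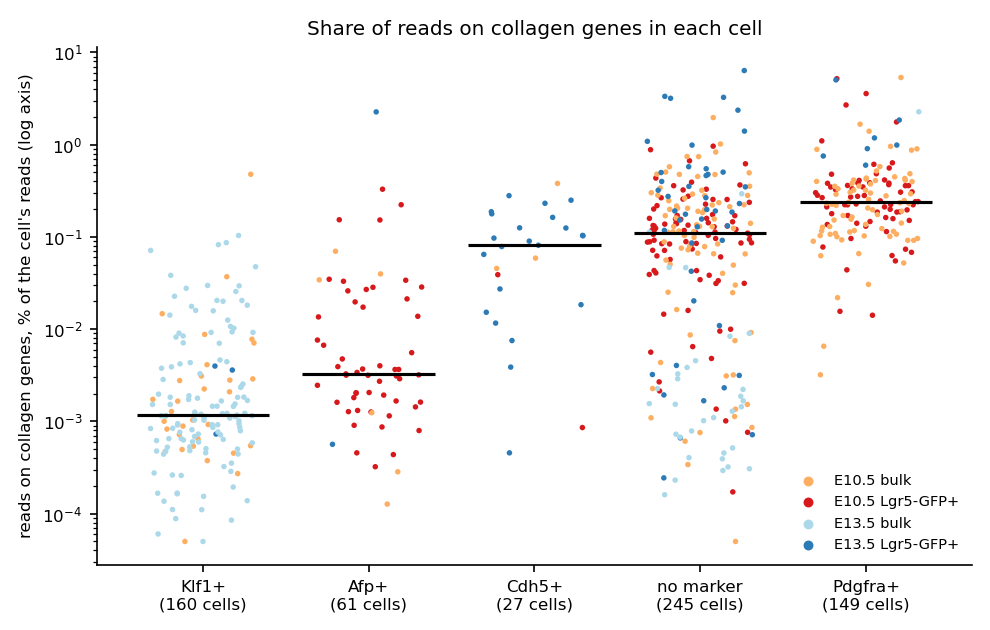
Share of each cell's reads on the 43 collagen genes (percent, log axis) by marker lineage; each dot is 1 cell, coloured by stage and sort, the bar is the median, and 3 cells without a collagen read are drawn at the bottom of the axis. Pdgfra+ cells had a median of 0.241%, and the highest Afp+ cell, at 2.26%, stood apart from the other Afp+ cells.

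A single cell carried much of the collagen signal of the Afp+ lineage. This E13.5 Lgr5-GFP+ cell gave 2.26% of its reads to collagens, with 7398 reads of Col1a2, 5287 of Col3a1 and 2159 of Col6a6, and held 224 Afp reads beside 0 reads of Alb and 0 of Pdgfra. Fibrillar collagens in Afp+ cells were at 361 RPM with it and 163.4 RPM without it. Other collagens were at 129.3 RPM with it and 40.6 RPM without it.

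By lineage, 23 of the 31 members at 10 RPM or more were highest in Pdgfra+ cells, 5 in Cdh5+ cells and 3 in Afp+ cells. Those of the Cdh5+ cells were Col4a1, Col4a2, Col18a1, Col13a1 and Col7a1. Those of the Afp+ cells were Col27a1, Col6a6 and Col8a2, and of these only Col27a1 was spread over many cells. No member at 10 RPM or more was highest in Klf1+ cells. Over all 43 members the counts were 30 in Pdgfra+, 8 in Cdh5+, 3 in Afp+ and 2 in Klf1+ cells. A member could pass the 10 RPM limit through the lineage where it was highest. The share of all genes highest in each lineage was not computed, so these counts describe the members only.

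**Figure D2:**
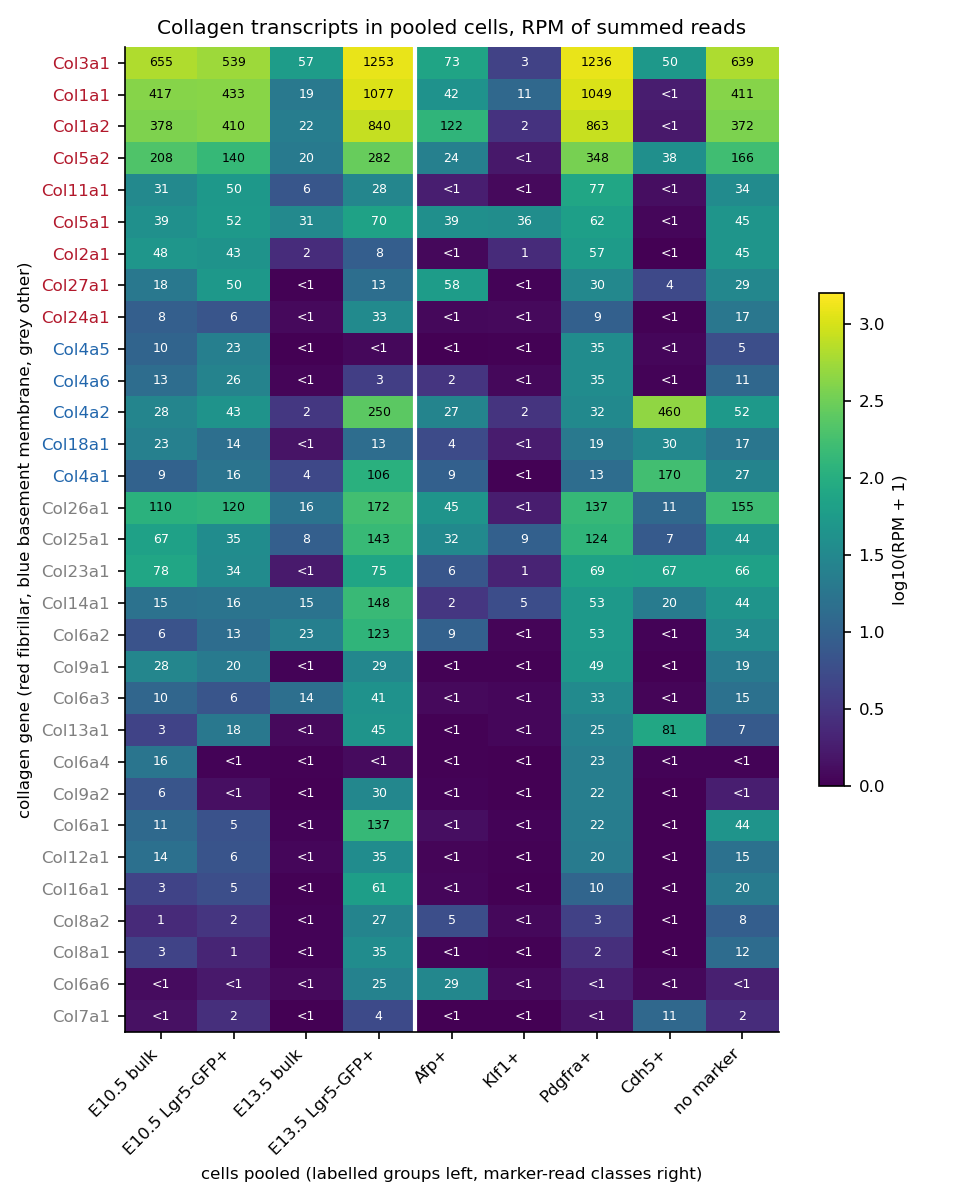
RPM of summed reads for the 31 collagen genes at 10 RPM or more (rows, coloured by class) in the 4 labelled groups and the marker lineages (columns); colour is log10(RPM + 1) and the number in each cell is the RPM. Col3a1 stood at 1253 RPM in E13.5 Lgr5-GFP+ cells and 1236 RPM in Pdgfra+ cells, and Col4a2 was highest in Cdh5+ cells at 460 RPM.

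Fibrillar collagens made up 82.2% of the collagen reads of Pdgfra+ cells and 9.87% of those of Cdh5+ cells. Basement membrane collagens were the reverse, at 2.995% and 69.3%. Fibrillar levels were 3734 RPM in Pdgfra+ cells (5 pools 2125 to 6300) against 361 in Afp+, 94.2 in Cdh5+ and 55.9 in Klf1+ cells. Basement membrane levels were 662 RPM in Cdh5+ cells (733 and 856 in the pools with enough cells) against 135.98 in Pdgfra+, 44.002 in Afp+ and 13.498 in Klf1+ cells. Of the fibrillar reads of Cdh5+ cells 54.7% came from 1 cell, without which the level was 43.9 RPM.

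Col3a1 encodes the single chain of type III collagen, the reticular fibre of soft organs. It was at 1236 RPM (1231 to 1241) in Pdgfra+ cells, and the 5 pools held 1553, 1570, 905, 1312 and 927 RPM. Single Pdgfra+ cells ran from 0 through a median of 715.03 to 11962 RPM, and 87.9% of the cells (interval 81.6 to 92.7%) held more than 10 reads. In the other lineages the share was 11.5% of Afp+ (3.57% without pool 2), 7.41% of Cdh5+ and 1.88% of Klf1+ cells, so most cells outside the Pdgfra+ lineage lay below that count. Cells without a marker held 639 RPM, and 44.9% of them passed 10 reads. The 250 bases before its annotated start are shown because it was the most abundant member, with a TATAAA match in capitals. They were read from GRCm38.p6 at chr1:45311288-45311537 on the plus strand and hold no exon bases:
Col3a1: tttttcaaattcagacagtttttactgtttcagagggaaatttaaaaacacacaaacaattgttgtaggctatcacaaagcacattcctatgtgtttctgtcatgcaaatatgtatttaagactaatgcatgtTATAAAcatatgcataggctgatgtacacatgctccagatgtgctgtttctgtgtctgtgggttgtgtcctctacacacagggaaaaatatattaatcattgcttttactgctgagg

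Col1a1 and Col1a2 encode the chains of type I collagen, the main fibre of scar, bone and skin. In Pdgfra+ cells Col1a1 was at 1049 RPM with pools at 804, 2293, 325, 1424 and 673 RPM, and Col1a2 was at 863 RPM with pools at 877, 1414, 516.7, 1152 and 408 RPM. The pools kept the same order for both genes except that pools 3 and 5 changed places. Col1a1 was concentrated in fewer cells: its median Pdgfra+ cell held 162.4 RPM against 344 RPM for Col1a2, and its highest cell gave 16.9% of the Col1a1 reads. In Cdh5+ cells the levels were 0.830 and 0.636 RPM, and none of the 27 cells passed 10 reads of either gene. A count of 0, taken as 3 of the total, allows a share of up to 11.1%. Per kilobase of merged exons the ratio of Col1a1 to Col1a2 was 2.30 in Pdgfra+ cells (pools 1.19 to 3.13), but per kilobase of the longest transcript it was 1.10, so the ratio depends on the length used.

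Col5a2 and Col5a1 encode chains of type V collagen, which starts fibrils of types I and III. Col5a2 was at 348 RPM in Pdgfra+ cells (pools 148.2 to 834), 37.8 in Cdh5+, 23.97 in Afp+ and 0.613 in Klf1+ cells. Col5a1 had a flatter pattern, at 62.2 RPM in Pdgfra+, 38.6 in Afp+ and 36.1 in Klf1+ cells, and 0.138 in Cdh5+ cells. It was the highest fibrillar gene in the erythroid lineage, ahead of Col1a1 at 10.97 RPM: 27 of 160 Klf1+ cells (16.9%, interval 11.4 to 23.6%) held more than 10 Col5a1 reads, and the other fibrillar genes described here passed that count in at most 4 Klf1+ cells. Klf1+ pools held 85.04, 2.11, 29.6, 32.3 and 23.9 RPM of Col5a1, so pool 2 stood below the rest. The ratio of Col5a1 to Col5a2 per kilobase in Pdgfra+ cells was 0.202 (pools 0.0631 to 0.575).

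Col2a1 and Col11a1, chains of the cartilage-type fibrils, were also read in the Pdgfra+ cells, at 56.8 and 77.3 RPM. More than 10 reads of Col2a1 were found in 33 Pdgfra+ cells, with pools at 175.3, 6.96, 47.016, 27.8 and 23.004 RPM, and in no Cdh5+ cell. Of the cartilage markers, the regulators Sox5 and Sox9 were read in the Pdgfra+ lineage at the summed levels given above. Their overlap with Col2a1 in single cells was not tested. The matrix genes Acan and Matn1 were at or near 0 in that lineage. Sox5 was also at 221 RPM in Afp+ cells. Col24a1, a minor fibrillar chain, was at 8.51 RPM in Pdgfra+ cells and below 1 RPM in the other lineages.

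Col27a1, a fibrillar gene first described in cartilage and epithelia, was the member highest in Afp+ cells that many of those cells held. It was at 58.1 RPM in Afp+ cells, where the 4 pools with enough cells held 66.95, 63.8, 48.7 and 38.4 RPM, against 30.04 RPM in Pdgfra+, 4.15 in Cdh5+ and 0.0836 in Klf1+ cells. More than 10 reads were found in 23 of 61 Afp+ cells (37.7%, interval 25.6 to 51.04%), and the highest cell gave 19.9% of the reads. Afp+ and Pdgfra+ pools overlapped, and within pools the Afp+ cells were higher in 3 of 4, the exception being pool 5. Over all cells the difference did not reach 2-fold. The 250 bases before an annotated start are shown because of this pattern, with the GC box core GGGCGG in capitals. The gene model begins further upstream, at chr4:63214004, so these bases lie within it (GRCm38.p6, chr4:63215162-63215411, plus strand, no exon bases):
Col27a1: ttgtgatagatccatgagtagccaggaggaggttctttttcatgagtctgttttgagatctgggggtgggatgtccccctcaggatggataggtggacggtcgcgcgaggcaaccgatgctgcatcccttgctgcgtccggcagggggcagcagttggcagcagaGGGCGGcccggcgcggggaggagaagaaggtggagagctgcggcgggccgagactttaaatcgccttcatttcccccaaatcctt

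Type IV collagen, the network of basement membranes, has 6 chains in mouse, encoded by 3 pairs of genes that face away from each other. Col4a1 and Col4a2, the pair found under most endothelia, were highest in Cdh5+ cells. Col4a2 was at 460 RPM (453 to 467) and passed 10 reads in 21 of 27 cells (77.8%, interval 57.7 to 91.4%), with a median cell at 409 RPM and a highest at 1832 RPM. Col4a1 was at 170 RPM (165.3 to 173.8) and passed 10 reads in 17 of 27 cells, with a median cell at 78.8 RPM. Both pools with at least 5 Cdh5+ cells held 540 RPM of Col4a2, and they held 167.6 and 242 RPM of Col4a1. In Pdgfra+ cells the levels were 31.9 and 12.9 RPM, in Afp+ cells 27.1 and 8.51 RPM, and the median cell of each of those lineages held 0 RPM of either gene. Per kilobase the ratio of Col4a1 to Col4a2 in Cdh5+ cells was 0.327, with pools at 0.275 and 0.398.

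All 17 Cdh5+ cells with more than 10 Col4a1 reads also held more than 10 Col4a2 reads. Over all cells 67 passed for Col4a1, 120 for Col4a2 and 48 for both, which is 71.6% of the former and 40% of the latter. The gene models of the pair overlap at their starts by 22 bases, Col4a2 on the plus strand at chr8:11312805-11449287 and Col4a1 on the minus strand at chr8:11198423-11312826. Smart-seq2 does not keep strand, so reads within that overlap cannot be split between the genes. The overlap is printed because it is where both transcripts begin (GRCm38.p6, chr8:11312805-11312826, plus strand, the first exon of both gene models):
Col4a1 and Col4a2: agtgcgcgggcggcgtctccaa

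Col4a5 and Col4a6, the X-linked pair that begins 1308 bases apart, were found in Pdgfra+ cells at 35.5 and 34.5 RPM. In Cdh5+ cells they were at 0.138 and 0.0830 RPM and in Klf1+ cells at 0.0446 and 0.167 RPM. They were uneven, with Col4a5 pools at 5.59, 3.57, 11.97, 95.1 and 37.2 RPM and Col4a6 pools at 0.114, 22.6, 16.6, 59.6 and 69.3 RPM. More than 10 reads were seen in 34 cells for Col4a6, in 47 for Col4a5 and in 14 for both, so the pair was read together less often than Col4a1 and Col4a2 by count, a difference that was not tested. The window before Col4a6 lies between both genes and is shown with its GC box core, here in reverse complement as CCGCCC, in capitals (GRCm38.p6, chrX:141474077-141474326, minus strand, no exon bases):
Col4a6: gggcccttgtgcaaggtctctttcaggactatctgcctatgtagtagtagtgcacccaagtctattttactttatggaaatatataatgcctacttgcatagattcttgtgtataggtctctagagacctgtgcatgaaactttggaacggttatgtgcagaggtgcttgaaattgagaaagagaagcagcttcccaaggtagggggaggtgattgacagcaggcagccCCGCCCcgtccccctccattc

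Col4a3 and Col4a4, the remaining pair, held 270 and 2532 reads in all and were highest in Klf1+ cells. Col4a4 was at 9.13 RPM there, and these reads came from few cells, with 4 of 160 above 10 reads. In Klf1+ cells 1 cell gave 81.6% of the Col4a4 reads and 1 cell gave 86.1% of the Col4a3 reads. Col18a1, the source of endostatin, was at 30.5 RPM in Cdh5+, 18.6 in Pdgfra+ and 4.33 in Afp+ cells, and in Cdh5+ cells 53.8% of its reads came from 1 cell. Col15a1 held 978 reads in all and was at 1.69 RPM in Cdh5+ cells.

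Among the other collagens, transmembrane genes were read in both mesenchyme and endothelium. Col13a1, a transmembrane collagen of cell contacts, was at 80.98 RPM in Cdh5+ cells (pools 48.98 and 182.2, with 8 of 27 cells above 10 reads) and 25.3 RPM in Pdgfra+ cells (pools 1.69 to 71.8). Col23a1 was at 69.4 RPM in Pdgfra+ and 66.7 RPM in Cdh5+ cells and did not pass 2-fold between them. Col25a1, which is expressed in developing muscle and neurons, was at 124.04 RPM in Pdgfra+, 32.5 in Afp+ and 7.11 in Cdh5+ cells. The 250 bases before Col13a1 are shown as those of the transmembrane gene called higher in Cdh5+ cells, with a TATAAA match in capitals (GRCm38.p6, chr10:61979109-61979358, minus strand, no exon bases):
Col13a1: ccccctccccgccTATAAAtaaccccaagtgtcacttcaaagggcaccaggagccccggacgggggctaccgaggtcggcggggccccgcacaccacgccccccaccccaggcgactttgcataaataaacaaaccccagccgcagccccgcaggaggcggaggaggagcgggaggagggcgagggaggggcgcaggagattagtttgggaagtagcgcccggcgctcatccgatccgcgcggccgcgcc

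Type VI collagen forms beaded filaments between fibres and cells, from Col6a1, Col6a2 and a further chain such as Col6a3. In Pdgfra+ cells these were at 21.9, 52.6 and 32.96 RPM, and in Cdh5+ and Klf1+ cells each was below 1 RPM. Of the further chains, Col6a4 was at 22.6 RPM in Pdgfra+ cells and Col6a6 at 28.9 RPM in Afp+ cells, each from 1 cell for nearly all of its reads. Among FACITs, Col14a1 was at 53.1 RPM and Col9a1 at 48.9 RPM in Pdgfra+ cells. Col9a2 was at 22.5, Col12a1 at 20.2 and Col16a1 at 10.04 RPM there. Col26a1, a secreted collagen described in testis and ovary, was at 137.003 RPM in Pdgfra+ cells and 155.07 RPM in cells without a marker. Its Pdgfra+ level was 0.719 RPM in the 7 E13.5 Lgr5-GFP+ cells of that lineage.

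The remaining members were low or rested on few cells. Col7a1, the anchoring fibril of skin, was at 11.1 RPM in Cdh5+ cells from 4 cells above 10 reads. Col8a1 and Col8a2, short chain collagens of vessel walls and cornea, reached 34.8 and 26.5 RPM in E13.5 Lgr5-GFP+ cells, where 1 cell gave nearly all Col8a1 reads. Below 10 RPM in every group and lineage were also Col9a3 (4787 reads), Col19a1 (2092), Col22a1 (1852), Col11a2 (1603), Col20a1 (867), Col28a1 (268) and Col6a5 (69).

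Between lineages the members differed more often than genes at large when Pdgfra+ cells were on one side. Against Afp+ cells, 29 of 38 members were higher in Pdgfra+ cells and 2 lower, where 34.7% of the 14573 genes tested were higher and 16.1% lower. The median log2 ratio of the members was 4.34 against 0.35 for all genes. Col1a1 was 24.96-fold, Col3a1 16.9-fold, Col5a2 14.5-fold and Col1a2 7.08-fold higher in Pdgfra+ cells, each in all 4 pools compared. Col4a1, Col4a2, Col5a1 and Col27a1 did not pass 2-fold. The fibrillar class was higher by 3.37 on the log2 scale over all cells (4.46 without pool 1) and by 4.15 to 6.43 within pools, none of which held the single high Afp+ cell described above.

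Against Klf1+ cells, 35 of 38 members were higher in Pdgfra+ cells and 1, Col4a4, was lower, with 38.7% and 17.1% of all genes. Col5a1 was 1.72-fold higher and not called. The Col4a4 call rested mostly on 1 Klf1+ cell, as given above. Fibrillar, basement membrane and other collagens were higher by 6.06, 3.33 and 5.30 on the log2 scale, and in all 5 pools each.

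The endothelial lineage had its own set. Against Pdgfra+ cells, 5 of 38 members were higher in Cdh5+ cells and 31 lower, where 21.3% of all genes were higher and 36.6% lower. Col4a2 was 14.4-fold, Col4a1 13.2-fold, Col13a1 3.203-fold, Col7a1 23.6-fold and Col15a1 102.8-fold higher, the last from 1.69 RPM. Col1a2 was 1357-fold, Col1a1 1264-fold, Col4a6 416-fold, Col4a5 256-fold, Col3a1 24.6-fold and Col5a2 9.21-fold lower, and Col2a1 was at least 685-fold lower with 0 reads in Cdh5+ cells. In both pools compared the basement membrane class was higher (log2 1.85 and 2.40) and the fibrillar class lower (log2 -4.20 and -5.84). Of the type IV chains, Col4a1 and Col4a2 were higher and Col4a4, Col4a5 and Col4a6 lower in Cdh5+ cells. Since 22 of 27 Cdh5+ cells were E13.5 Lgr5-GFP+ cells and all but 8 of the Pdgfra+ cells were E10.5 cells, lineage and stage cannot be told apart here. Among E13.5 Lgr5-GFP+ cells alone, Col4a2 was at 510 RPM in 22 Cdh5+ and 231 RPM in 7 Pdgfra+ cells, and Col4a1 at 199.4 and 3.60 RPM. Col4a4, Col4a5 and Col4a6 were below 1 RPM in both of these sets, too low to compare the lineages at that stage. Col4a5 held 5 reads in each set, at 0.719 RPM in Pdgfra+ and 0.170 RPM in Cdh5+ cells. The leukocyte markers of the Cdh5+ cells given above move with the same comparison, and their part was not tested.

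**Figure D3:**
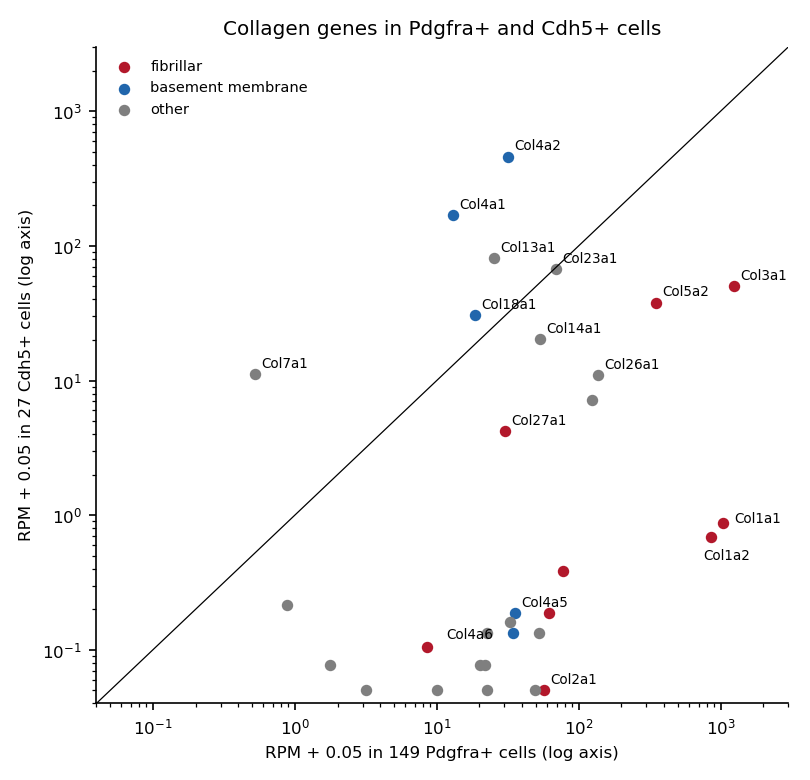
RPM of the 31 collagen genes at 10 RPM or more in Pdgfra+ cells (horizontal) and 27 Cdh5+ cells (vertical), on log axes with a small offset added so that 0 can be drawn; the line marks equal levels and colour marks the class. Col4a1, Col4a2, Col13a1, Col18a1 and Col7a1 lay above the line, and Col1a1 and Col1a2 lay far below it, at 0.830 and 0.636 RPM in Cdh5+ cells.

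Against Afp+ cells, 10 of 38 members were higher in Cdh5+ cells and 16 lower, with 28.4% and 29.3% of all genes. These counts were 12 and 12 without pool 1, 13 and 13 without pool 3, and 13 and 10 without the 5 highest cells. Col4a2 was at 460 against 27.1 RPM and Col13a1 at 80.98 against 0.0530 RPM, both higher in Cdh5+ cells in the 2 pools compared. Col27a1 was at 4.15 against 58.1 RPM and lower in both pools. Without the highest cell of each lineage the fibrillar levels were 43.9 RPM in Cdh5+ and 163.4 RPM in Afp+ cells.

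Between stages the sorts moved in opposite directions. In bulk sorts, 30 of 38 members were lower at E13.5 and 3 higher, where 36.7% of all genes were lower and 13.6% higher, and 21 of the 30 were lower in every pool with a value. Fibrillar collagens went from 1804 RPM at E10.5 (pools 1129 to 2749) to 160 RPM at E13.5, where the pools held 626, 10.8, 50.7, 41.97 and 31.3 RPM. No E13.5 pool overlapped with an E10.5 pool. The log2 ratio was -3.49, and -5.77 without pool 1. Col3a1 went from 655 to 57.5 RPM, and 1 Pdgfra+ cell gave 95.7% of the later reads. Basement membrane collagens went from 83.7 to 17.8 RPM and other collagens from 394 to 83.2 RPM. Of the E13.5 bulk cells 32 had no marker, 1 was Pdgfra+, 1 held several markers and the rest were Klf1+, whereas 32 E10.5 bulk cells were Klf1+. Pdgfra+ cells numbered 75 in E10.5 bulk and 1 in E13.5 bulk, too few to compare the stages within that lineage. The summed levels mix the number of cells of a type with the RNA per cell, and the part of each was not tested.

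In Lgr5-GFP+ sorts, 24 of 38 members were higher at E13.5 and 7 lower, where 21.6% of all genes were higher and 27.6% lower, and 6 of the 24 were higher in every pool. Without pool 2 the counts were 15 higher and 11 lower. Type VI chains were among those higher in every pool. Col6a1 rose from 5.45 to 137.4 RPM, and its E13.5 pools of 175.04, 76.5, 48.6, 271 and 237 RPM all lay above the E10.5 pools of 0.169, 0.447, 7.70, 16.1 and 3.91 RPM. Col6a2 (12.9 to 122.9 RPM), Col6a3 (5.94 to 41.3 RPM), Col14a1 (16.1 to 148.3 RPM) and Col4a1 (16.1 to 106.2 RPM) were also higher in all 5 pools. Col4a5 went from 23.04 to 0.181 RPM, 127.2-fold lower and lower in all 5 pools. Col27a1 went from 50.2 to 13.4 RPM and was lower in 4 of 5 pools. The lineages of these sorts also changed between stages. From E10.5 to E13.5 the Lgr5-GFP+ cells went from 2 to 22 Cdh5+, from 53 to 2 Afp+ and from 66 to 7 Pdgfra+ cells. Cdh5+ cells gave 5847 of the 9964 Col4a1 reads at E13.5. The part of the lineage mix in these changes was not tested.

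The fibrillar increase in Lgr5-GFP+ sorts was not shared by the pools. Fibrillar collagens were at 1724 RPM at E10.5 and 3605 RPM at E13.5, a log2 ratio of 1.06, but the ratio was positive in 2 of 5 pools and ran from -1.93 to 3.63. Without pool 2 it was -0.53. Col1a1 at E13.5 held 188.8, 2639, 61.2, 284 and 1606 RPM in the pools and Col3a1 551, 3087, 210.5, 330 and 929 RPM, so pools 2 and 5 were high for both. The median E13.5 Lgr5-GFP+ cell held 85.7 RPM of fibrillar collagen against 507.5 RPM at E10.5, and 1 cell gave 22.8% of the E13.5 reads.

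**Figure D4:**
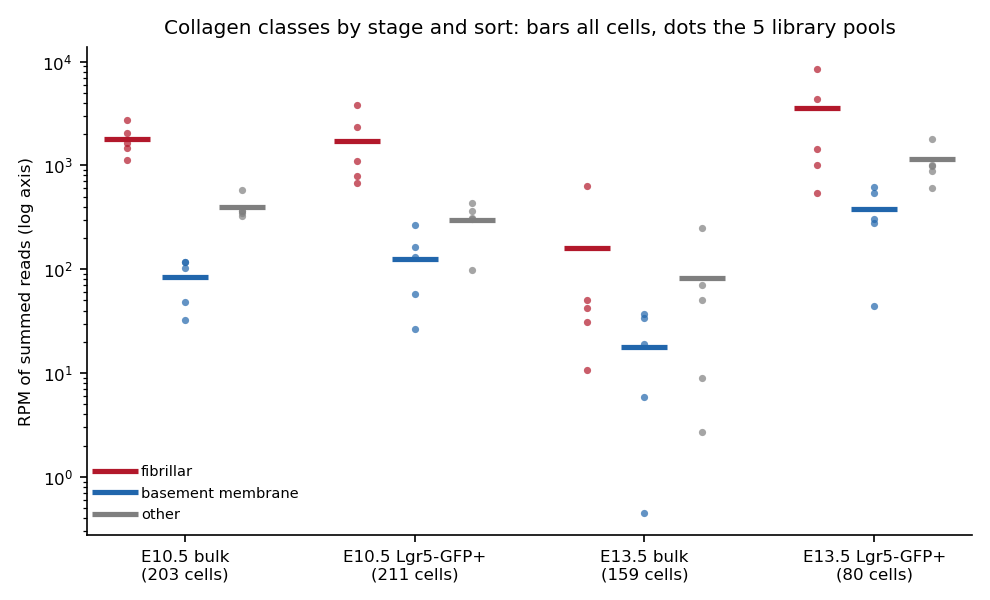
RPM of summed reads (log axis) for fibrillar, basement membrane and other collagens in the 4 groups; bars are all cells of a group and dots are the 5 library pools. E13.5 bulk cells lay lowest in every class, with fibrillar collagens at 160 RPM, and the pools of E13.5 Lgr5-GFP+ cells spread from 546 to 8441 RPM.

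At E13.5, 34 of 38 members were higher in Lgr5-GFP+ than in bulk cells and 2 lower, where 36.2% of all genes were higher and 21.4% lower, and 23 of the 34 were higher in every pool with a value. Col1a1 was at 1077 against 18.8 RPM, Col4a2 at 250 against 2.32 RPM and Col6a1 at 137.4 against 0.0846 RPM, each higher in all 5 pools. Only 3 of 80 E13.5 Lgr5-GFP+ cells (3.75%) held more than 10 Lgr5 reads, against 62 E10.5 Lgr5-GFP+ cells (29.4%). By marker the 80 cells were 45 without a marker, 22 Cdh5+, 7 Pdgfra+, 3 Klf1+ and 2 Afp+ cells, with 1 of several markers.

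Within E13.5 Lgr5-GFP+ cells the lineages held different levels. The 22 Cdh5+ cells held Col4a2 at 510 RPM, with 18 cells above 10 reads, and Col4a1 at 199.4 RPM. The 7 Pdgfra+ cells also held Col4a2, at 231 RPM with 6 cells above 10 reads, beside Col1a1 at 3750 RPM, Col14a1 at 998 RPM and Col25a1 at 972 RPM. The 45 cells without a marker held Col3a1 at 1916 RPM and Col26a1 at 273 RPM. Their median cell held 8.10 RPM of Col3a1 and their highest 18941 RPM, so a few cells carried the level. These 45 cells also held megakaryocyte markers at 3724 RPM and smooth muscle markers at 828 RPM, the latter nearly all from Acta2 at 819 RPM. The part of either list in the collagen values was not tested.

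At E10.5 the sorts held fibrillar collagens at similar summed levels, while calls on single members went both ways. In Lgr5-GFP+ against bulk cells 9 of 38 members were higher (23.7%) and 7 lower (18.4%), where 14.4% and 13.6% of all genes were. Without pool 4 the counts were 7 and 13. Of these calls 2, Col27a1 and Col4a4, held in every pool with a value. Fibrillar collagens were at 1724 against 1804 RPM, and the pools ran from a log2 ratio of -2.02 to 1.39. Col27a1 held 37.8, 68.4, 53.7, 28.8 and 60.03 RPM in the Lgr5-GFP+ pools and 33.3, 20.6, 18.2, 1.76 and 17.1 RPM in the bulk pools, so it was higher in every pool while the groups overlapped in 1 pool value. More than 10 Col27a1 reads were found in 58 Lgr5-GFP+ cells (27.5%, interval 21.6 to 34.04%) and 18 bulk cells (8.87%, interval 5.34 to 13.7%). Of the E10.5 Lgr5-GFP+ cells 53 were Afp+, against 6 of the bulk cells.

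Within the Pdgfra+ lineage at E10.5 the sorts could be compared without that difference in lineage. In 66 Lgr5-GFP+ against 75 bulk cells, 7 of 38 members were higher and 11 lower, where 18.1% and 16.1% of all genes were. Without pool 3 the counts were 12 and 11, and without pool 2 they were 10 and 10. Col3a1 was at 1216 against 1102 RPM and did not differ by 2-fold. Col27a1 was at 54.6 against 9.14 RPM and higher in all 5 pools (log2 0.74 to 7.92), with 17 of 66 (25.8%, interval 15.8 to 38.006%) against 7 of 75 cells (9.33%, interval 3.84 to 18.3%) above 10 reads. Col4a5 was at 57.5 against 17.7 RPM and higher in 4 of 5 pools, and Col13a1 at 40.8 against 9.61 RPM and higher in 3 of 5. Lower in Lgr5-GFP+ cells were Col12a1 (10.7 against 29.3 RPM, 4 of 4 pools), Col14a1 (6.86 against 24.6 RPM, 4 of 5 pools) and Col25a1 (48.5 against 117.3 RPM, 4 of 5 pools). The class ratios crossed 0 within pools, from -1.75 to 1.70 for fibrillar, -2.10 to 1.31 for basement membrane and -2.58 to 0.76 for other collagens.

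**Figure D5:**
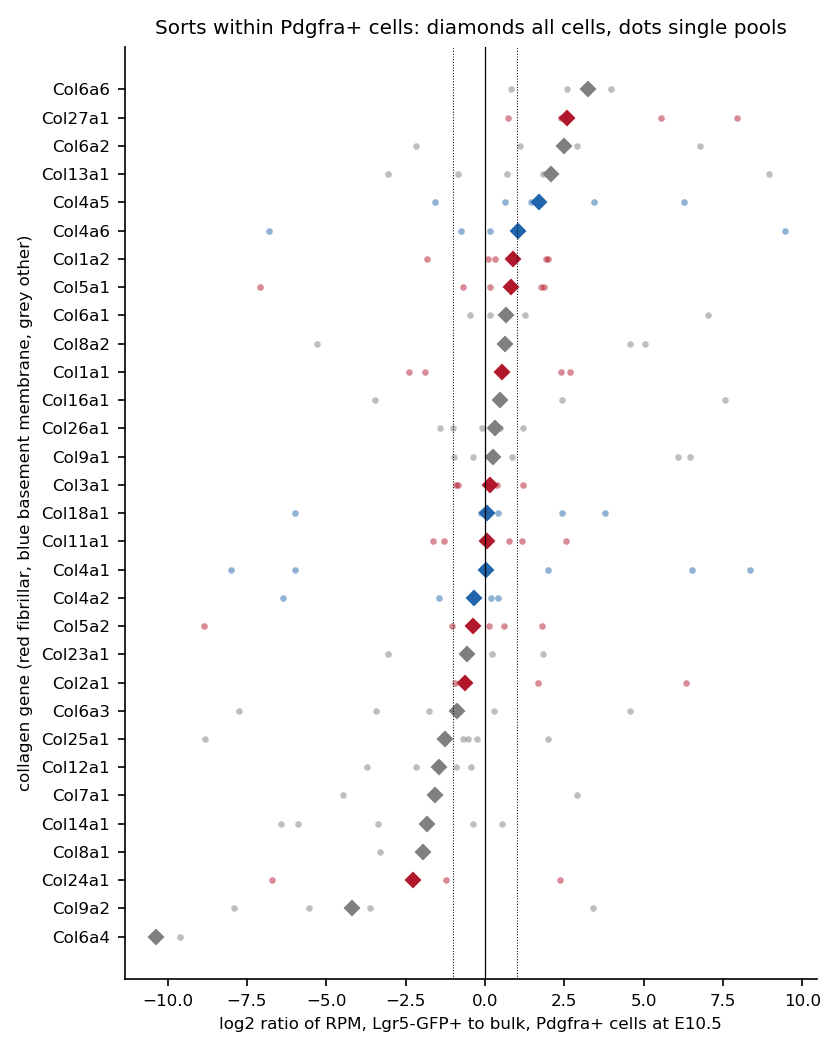
Log2 ratio of RPM, Lgr5-GFP+ to bulk, in E10.5 Pdgfra+ cells for the collagen genes at 10 RPM or more; diamonds are all cells, dots are single library pools, colour marks the class and dotted lines mark 2-fold. Dots of most genes fall on both sides of 0, and those of Col27a1 all lie above it, from 0.74 to 7.92.

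Within Klf1+ bulk cells, 8 of 38 members were higher at E13.5 and 15 lower, where 17% and 18.2% of all genes were. Without the 5 highest cells the counts were 9 and 10. The levels were low at both stages. Col1a1 went from 47.04 to 0.920 RPM and Col3a1 from 9.19 to 1.58 RPM, while Col5a1 was at 25.9 and 39.6 RPM. Of the E10.5 fibrillar reads 62.5% came from 1 of the 32 cells, and the class ratios changed sign between pools for fibrillar and other collagens. The log2 ratio of other collagens was -2.06, and 2.02 without pool 1.

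Most collagen pairs had low correlations from cell to cell within the Pdgfra+ lineage. Over its cells, which share libraries and differ in depth, the 325 pairs of the 26 members at 10 RPM or more had a median Pearson correlation of 0.0769 on log2(RPM + 1), from -0.213 to 0.573. Only Col1a1 with Col3a1 (0.573, Spearman 0.574) and Col6a1 with Col6a2 (0.568, Spearman 0.332) passed 0.5. Col4a5 with Col4a6 reached 0.418. Pairs of other genes were not measured, so no level for genes at large stands beside these values. Many collagen pairs had few cells with more than 10 reads of both genes. Col3a1 and Col5a2, which lie tail to tail on chromosome 1, shared 55.7% and 84.4% of the cells in which each held more than 10 reads.

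The genes that fold, cut, bind and bear collagen were counted by the same rule. Chain folding and modification has 18 tested genes, propeptide cleavage and cross-linking 11, receptors 8, and binding and breakdown 10. In Pdgfra+ against Klf1+ cells the higher genes were 15, 10, 5 and 10 of these and the lower ones 0, 1, 2 and 0, where 38.7% of all genes were higher and 17.1% lower. In Pdgfra+ against Afp+ cells 7, 8, 5 and 8 were higher and 1, 1, 3 and 1 lower, with 34.7% and 16.1% of all genes. The folding genes were near that share of all genes, with a median log2 ratio of 0.62 against 0.35. In Cdh5+ against Pdgfra+ cells 4, 1, 4 and 1 were higher and 4, 6, 3 and 7 lower, with 21.3% and 36.6% of all genes. Serpinh1, the collagen-specific chaperone, was at 319 RPM in Pdgfra+, 277 in Cdh5+, 81.98 in Afp+ and 0.357 in Klf1+ cells. It was read in both lineages with high collagen. P4ha2, a subunit of prolyl hydroxylase, was at 121.9 RPM in Pdgfra+ and 0.0277 RPM in Cdh5+ cells, and Plod1, a lysyl hydroxylase, was at 38.5 and 155.9 RPM. Pcolce, which speeds the cutting of fibrillar propeptides, was at 370 and 11.8 RPM, and Pxdn, which cross-links type IV collagen, at 140.996 and 237 RPM.

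Among receptors and binders, Ddr2, a receptor for fibrillar collagen, was at 143.96 RPM in Pdgfra+ and 0.553 RPM in Cdh5+ cells. Dcn and Lum, proteoglycans bound to fibrils, were at 587 and 663 RPM in Pdgfra+ and below 1 RPM in Cdh5+ cells, whereas Sparc was at 1407 and 2110 RPM. Itgb1, the shared integrin subunit, was read in all lineages, at 478 RPM in Klf1+ and 301 RPM in Pdgfra+ cells. Between stages, 0 folding genes were higher and 13 lower in bulk sorts, where 13.6% of all genes were higher and 36.7% lower. In Lgr5-GFP+ sorts 5 of 18 folding genes were higher and 1 lower, with 21.6% and 27.6% of all genes. Between the E10.5 sorts 0 folding genes passed 2-fold in either direction.

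Of the 43 members 34 had a window of 250 bases before an annotated start, 37 windows in all, and 19 of these held no exon bases. Motifs were searched on both strands in all 37 and in 32851 windows of the same length. GGGCGG (the GC box core) was present in 59.5% of the members' windows and 32.7% of all windows, CCAAT in 35.1% and 33.8%, TATAAA in 10.8% and 12.4%, and AGGAAG in 29.7% and 29.5%. A match describes the letters of a window and shows no binding.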

How the data were processed

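The authors deposited raw read counts per gene and cell. According to the study's methods and the submitters' processing notes, Smart-seq2 reads were aligned to GRCm38.p6 with STAR 2.6.0c and counted with featureCounts of Subread 1.6.2. Their batch-corrected table of variable genes was not used. No per-cell column was left unused (0 columns), no pair of cells held identical counts, and 153 genes without a symbol, with 0.00205% of the reads, stayed out.

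Counts were summed over cells and scaled to RPM in Python 3.11.15 with numpy 2.4.6, pandas 2.3.3 and scipy 1.17.1 (figures with matplotlib 3.10.9). Genes at 1 RPM or more over all cells (14573) formed the background. Calls needed 2-fold with a floor of 3 reads. Within-pool values needed 5 cells on both sides. Named members reached 10 RPM in a group or lineage of at least 10 cells, and the others are named with their total reads. The members, classes and gene lists were chosen with earlier results of these data known. Gene positions came from the GENCODE annotation of the same build. The fold rule was tested on simulated data. Alternatives were the mean over cells, thinning to 100000 reads, other folds, filters and marker thresholds, and leaving out pools or the 5 highest cells. Afp+ and Cdh5+ cells were not compared with Klf1+ cells by calls, and their levels are given side by side.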

Additional observations from a re-analysis of the deposited data

Results flagged for a closer look

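The other collagens (type VI, FACIT, transmembrane, short chain and further genes) moved in opposite directions between stages in the sorts. From E10.5 to E13.5 their log2 ratio was -2.24 in bulk cells, with pools from -7.00 to -1.20, and 1.94 in Lgr5-GFP+ cells, with pools from 0.96 to 4.19. The directions were opposite in all 5 pools, and the difference itself was not tested. In E13.5 bulk cells 63.8% of these reads came from 1 cell. The groups also differed in the lineages they held, and the part of that was not tested.

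The 11 cells with more than 10 reads of several lineage markers enter no comparison. Collagen genes took a median of 0.214% of their reads, from 0.00110% to 0.694%, against medians of 0.241% in Pdgfra+, 0.00327% in Afp+ and 0.00119% in Klf1+ cells.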

How the results depend on the processing

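Under the other settings 504 values stayed within the spread between pools or within 1.5 times a count, 62 moved further and 6 reversed. No paired analysis was possible because each group is 1 sample and the labels give no replicate number or animal, and ratios within the library pools that the groups share are given as values. Thinning lowered the share of cells with a Col3a1 read, as given below. Members below 10 RPM rest on few cells, and so do some above it, such as Col6a4 with 98.7% of its reads in 1 cell.

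Without the 5 highest cells the log2 ratio of other collagens was -5.35 for bulk stages, 6.59 for E13.5 sorts and 5.33 for Pdgfra+ against Afp+ cells, and that of fibrillar collagens was 5.35 for Pdgfra+ against Afp+, -6.54 for Cdh5+ against Pdgfra+ and -1.19 for Cdh5+ against Afp+ cells. With any marker read (over 0) the fibrillar ratio was 1.69 for Pdgfra+ against Afp+, -2.90 for Cdh5+ against Afp+ and 2.07 for Pdgfra+ against Klf1+ cells, and the ratio of other collagens in the last pair was 1.23. With over 50 marker reads the fibrillar ratio was -6.50 for Cdh5+ against Pdgfra+ and -3.51 against Afp+ cells, and with several-marker cells counted it was -4.02 and -1.14. In pools 1 and 2 alone the basement membrane ratio of sorts within Pdgfra+ cells was -0.72.

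The stage ratios within Klf1+ cells were unstable, and the cause was not tested. For fibrillar collagens they were -2.21 (pools 1 and 2), 1.39 (without the 5 highest cells), -5.29 (marker over 0), 0.52 (over 50) and -2.09 (several markers). For basement membrane collagens they were 4.91 (pools 1 and 2), -0.25 (over 0) and -0.81 (several markers). For other collagens they were -5.31 (pools 1 and 2), 1.13 (without the 5 highest cells), -6.25 (over 0) and 1.88 (over 50).

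With genes at 10 RPM or more the members called were 21 for bulk stages, 19 for Lgr5-GFP+ stages, 8 for E10.5 sorts, 20 for Pdgfra+ against Afp+, 22 for Cdh5+ against Pdgfra+, 23 for Pdgfra+ against Klf1+ and 8 for sorts within Pdgfra+ cells, since fewer genes were tested. At 4-fold they were 19 for Lgr5-GFP+ stages, 5 for E10.5 sorts, 10 for sorts within Pdgfra+ and 14 for stages within Klf1+ cells. At 1.5-fold 25 were called for E10.5 sorts. With the same direction in every pool they were 10 for Lgr5-GFP+ stages, 2 for E10.5 sorts and 6 for sorts within Pdgfra+ cells. After thinning to 100000 reads 9 were called for stages within Klf1+ cells. No scaling moved the split of higher and lower calls by over 10 points.

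With 1 or more reads, Col3a1 was found in 80.3% of Afp+, 58.8% of Klf1+, 99.3% of Pdgfra+, 77.8% of Cdh5+ and 87.8% of cells without a marker, and Col4a2 in 42.6% of Afp+, 16.3% of Klf1+, 40.3% of Pdgfra+ and 33.9% of cells without a marker. With more than 50 reads Col3a1 was found in 1.64% of Afp+ and Col4a2 in 15.4% of Pdgfra+ cells. After thinning, 1 or more Col3a1 reads were found in 26.2% of Afp+, 13.8% of Klf1+ and 58.8% of cells without a marker. The ratio of Col1a1 to Col1a2 was 1.10 per kilobase of the longest transcript.

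Leaving out each pool in turn, the fibrillar ratio ran from -5.77 to -2.90 for bulk stages, -0.53 to 1.78 for Lgr5-GFP+ stages, -0.63 to 0.37 for E10.5 sorts, 2.74 to 6.97 for E13.5 sorts, 2.64 to 4.46 for Pdgfra+ against Afp+. It also ran from -5.85 to -5.11 for Cdh5+ against Pdgfra+, -2.55 to -0.78 for Cdh5+ against Afp+, 5.68 to 6.87 for Pdgfra+ against Klf1+, -0.28 to 0.85 for sorts within Pdgfra+ cells and -1.15 to -0.12 for stages within Klf1+ cells.
Leaving out each pool in turn, the basement membrane ratio ran from -2.95 to -1.84 for bulk stages, 1.45 to 1.82 for Lgr5-GFP+ stages, 0.30 to 0.73 for E10.5 sorts, 3.96 to 5.16 for E13.5 sorts, 0.89 to 3.29 for Pdgfra+ against Afp+. It also ran from 2.12 to 2.55 for Cdh5+ against Pdgfra+, 3.13 to 5.41 for Cdh5+ against Afp+, 2.62 to 4.42 for Pdgfra+ against Klf1+, 0.06 to 0.96 for sorts within Pdgfra+ cells and 2.09 to 3.96 for stages within Klf1+ cells.
Leaving out each pool in turn, the ratio of other collagens ran from -3.24 to -1.97 for bulk stages, 1.25 to 2.16 for Lgr5-GFP+ stages, -0.60 to -0.19 for E10.5 sorts, 3.26 to 4.98 for E13.5 sorts, 1.45 to 3.99 for Pdgfra+ against Afp+. It also ran from -2.34 to -1.37 for Cdh5+ against Pdgfra+, -0.19 to 2.31 for Cdh5+ against Afp+, 4.96 to 6.19 for Pdgfra+ against Klf1+, -0.62 to -0.02 for sorts within Pdgfra+ cells and -3.39 to 2.02 for stages within Klf1+ cells.

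Of these, the ratio changed sign without pool 2 for fibrillar collagens of Lgr5-GFP+ stages (-0.53) and without pool 1 for other collagens of stages within Klf1+ cells (2.02), and ratios with a main value near 0 changed sign for fibrillar collagens of the E10.5 sorts, for those of the sorts within Pdgfra+ cells and for other collagens of Cdh5+ against Afp+ cells. The share of Afp+ cells with more than 10 reads ran from 3.57% to 14% for Col3a1 and from 4% to 21.4% for Col4a2, and that of cells without a marker ran from 15.9% to 26.6% for Col4a2.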
